A study of Saccharomyces cerevisiae with 18 samples.

Results

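Budding yeast kept for 40 min in medium without added potassium was compared with the same strain in that medium plus 50 mM KCl on 4 of the 18 spotted arrays of a time series. The 4 arrays were chosen by their label alone, which gives a time of 40 min and array numbers from 1 to 4. Both RNAs were hybridised to the same array with a dye each, and a gene's value is the log2 of its potassium-free signal divided by its KCl signal, so that 1 is a doubling. All cells were wild-type BY4741, a haploid laboratory strain that carries deletions in HIS3, LEU2, MET17 and URA3. Cultures had been grown at 28 °C to an absorbance of 0.6, collected, washed and returned to their medium for the 40 min. The potassium-free medium held about 15 µM potassium. The labels name the potassium-free medium for the growth before the wash as well, while the design text speaks of a sudden shortage, so the earlier potassium supply of those cells is not settled here. Per the design text, 2 independent experiments were made, each with a dye swap.

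Potassium is the main cation inside a yeast cell. It enters mainly through the Trk1 and Trk2 transporters, driven by the membrane potential that the proton pump Pma1 sets up, and it balances cellular anions, osmotic pressure and pH. Sulfate assimilation brings sulfate into the cell, activates it with ATP, reduces it to sulfide and passes the sulfur on to homocysteine, methionine, cysteine and S-adenosylmethionine. In BY4741 the enzyme that joins sulfide to the carbon chain, Met17, is missing, so both cultures lacked it. Msn2 and Msn4 are the activators of a general stress programme in yeast, and cells that slow their growth commonly lower the genes for ribosome assembly.

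The table holds 6212 genes, of which 4703 had a value on at least 3 of the 4 arrays and were tested, 3987 of them on all 4. A further 860 genes had values on 1 or 2 of the arrays and 649 on none. Arrays 1 and 2 gave values for 4493 and 4366 genes, arrays 3 and 4 for 5372 and 5176. Their medians lay between -0.10 and 0.18, and array 3 had the widest spread over genes, with a standard deviation of 0.905 against 0.612 to 0.765 on the others. The labels do not say which arrays form a dye-swap pair. Here experiment A is the mean of arrays 1 and 2, and experiment B that of arrays 3 and 4. Across genes, which are not independent replicates, arrays 1 and 2 correlated with r = 0.853, arrays 3 and 4 with 0.629, and the averaged experiments with 0.739. Array 4 correlated more closely with array 2 (0.759) and array 1 (0.710) than with array 3. Array 3 correlated with arrays 1 and 2 at 0.607 and 0.619, so these values do not settle the pairs. The direction of the ratio and its log2 base are likely, from the titles and the range of the values, and are not stated.

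At 40 min 246 genes were higher and 174 lower in potassium-free cells. The higher genes were led by sulfate uptake and reduction, by citrate and serine synthesis and by genes of the general stress programme. The lowest genes included G1 and S phase and ribosome assembly genes, an amino acid exporter, a repressor of assembly genes and a serine deaminase. The test was limma's moderated test of the mean of experiments A and B against 0, with Benjamini-Hochberg adjustment over the 4703 genes and a threshold of 0.05. Standard errors (SE) came from the spread between experiments within time points, pooled over the series and moderated across genes. They do not measure the distance between A and B at 40 min: HIS4, at 0.70 in A and 2.585 in B, had an SE of 0.38. The genes called were 8.93% of those tested, 5.23% higher and 3.70% lower, and these shares are the background for every count below. Of the 420 genes called, 418 had 1 sign on every array that measured them, against 46.8% of all genes tested. The test used the mean of these same arrays and so favours such genes, and the contrast is no separate support for the calls. At least a doubling was seen in 188 of the higher genes and at least a halving in 122 of the lower ones. A further 177 genes differed by at least 2-fold without passing the test. The counts depend on the assumed pairs: with arrays 1 and 3 and arrays 2 and 4 paired 1244 genes passed, while 282 passed without array 3, 24 without experiment A and 41 without experiment B.

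**Figure D1:**
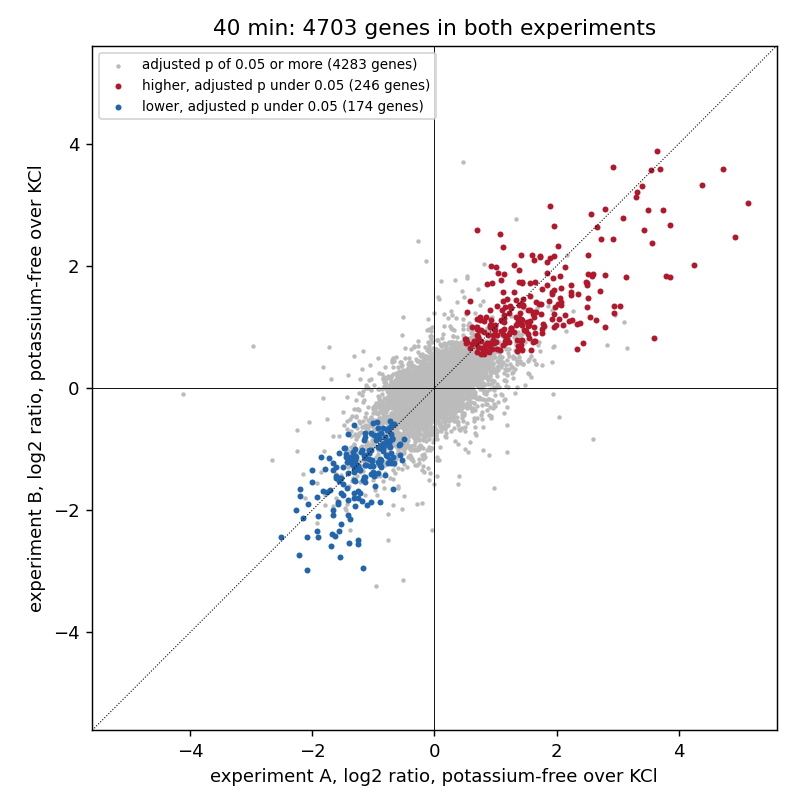
Each point is 1 of 4703 genes, with the log2 ratio of experiment A on the horizontal and that of experiment B on the vertical axis; red marks the 246 genes called higher, blue the 174 called lower, and the dotted line marks equal values. The higher genes tended to lie below the line, with medians of 1.43 (A) and 1.17 (B), and the lower genes lay on both sides of it, with medians of -1.18 (A) and -1.24 (B).

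Sulfate assimilation held the highest gene of the time point. All 10 of its members were above 0 on every array, 7 of the 10 passed the test, and the median of the 10 was 2.90 against 0.01 over all genes tested. At the entry step, SUL2, which encodes a high-affinity sulfate permease, was at 4.17, 5.28, 2.66 and 4.49 on arrays 1 to 4. That is 17.8-fold higher in potassium-free cells (log2 4.15, SE 0.47, adjusted p = 0.00532). Its paralogue SUL1 was at 0.52, 0.40, 1.15 and 0.58 and did not pass (mean 0.66, adjusted p = 0.231).

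The steps that activate and reduce sulfate followed closely together. MET3, the gene of ATP sulfurylase, was at 3.72, 5.05, 3.00 and 3.65 on the 4 arrays, a 14.5-fold rise (log2 3.85, SE 0.25, adjusted p = 0.000684). MET14, whose kinase phosphorylates the activated sulfate, was at 3.38, 3.90, 3.31 and 4.45 (mean 3.76, SE 0.26, adjusted p = 0.000726). MET16, the gene of the reductase that releases sulfite, had the narrowest range of the 3, from 3.12 on arrays 1 and 4 to 3.52 on array 2. It had the lowest adjusted p of the time point (mean 3.27, SE 0.17, adjusted p = 0.000382), a value shared by MET5. MET5 and MET10 encode the subunits of sulfite reductase, which makes sulfide. They were measured on arrays 1, 3 and 4 only, MET5 at 3.10, 2.82 and 2.74 and MET10 at 2.56, 2.82 and 2.88, so the subunit genes overlapped in range.

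Sulfite reductase needs siroheme, and the gene of the first enzyme of siroheme synthesis, MET1, was at 2.74, 2.86, 3.06 and 2.79 (mean 2.86, SE 0.21, adjusted p = 0.000815). MET8, for the later steps of the same cofactor, was at 0.16, 0.82, 0.87 and 0.53 and did not pass (mean 0.59, adjusted p = 0.0699). MET22 encodes the phosphatase that removes the nucleotide by-product of sulfate reduction, a known target of sodium and lithium. It was at 0.28, 0.86, 1.31 and 0.84 and lay just past the threshold on the side not called (mean 0.82, adjusted p = 0.0509). The 7 called members lay between 2.70 and 4.15 and the other 3 between 0.59 and 0.82, with nothing between them.

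**Figure D2:**
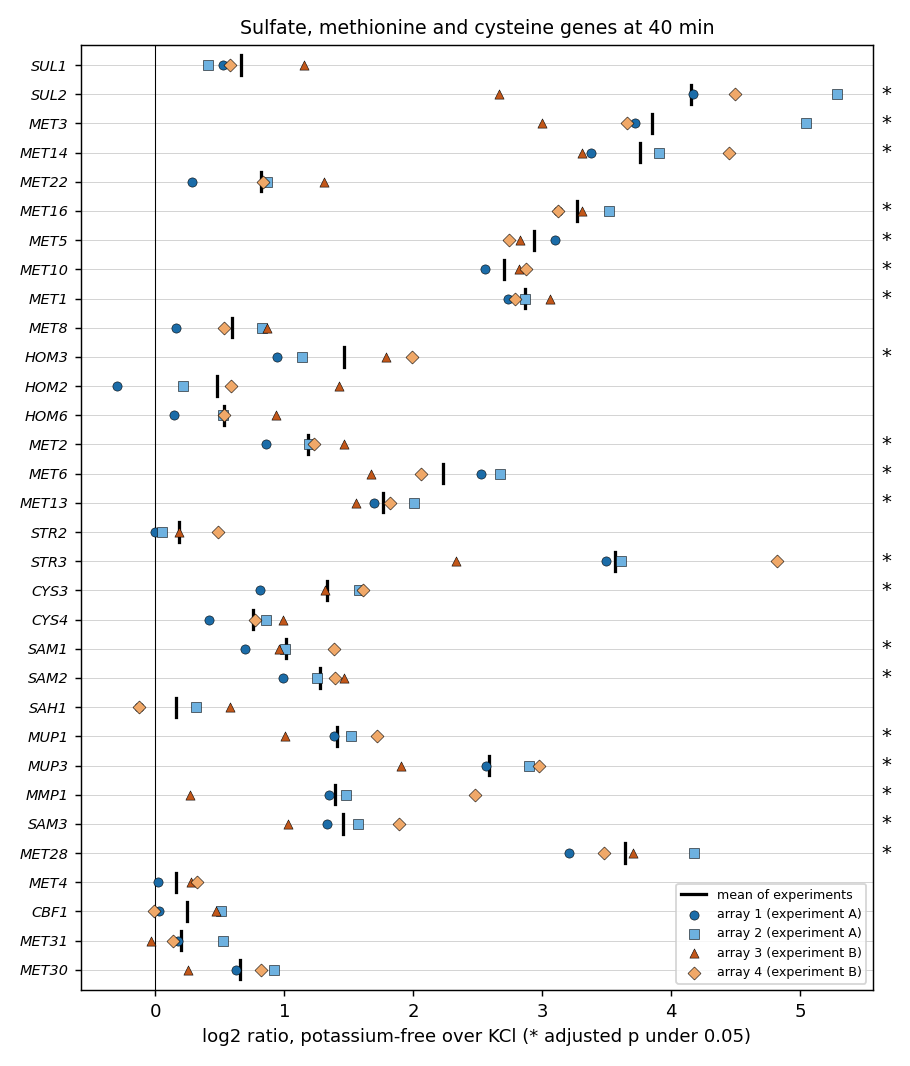
Log2 ratio of potassium-free over KCl for 32 sulfur genes in pathway order, 1 marker per array (circles and squares for arrays 1 and 2 of experiment A, triangles and diamonds for arrays 3 and 4 of experiment B), a bar for the mean of the experiments and an asterisk for an adjusted p under 0.05. SUL2, MET3, MET14, MET16, STR3 and MET28 stand above 2 on every array, while MET4, CBF1 and MET31 lie near 0.

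Downstream of sulfide, 9 of 20 methionine and cysteine genes were higher and none lower, with a median of 0.70. STR3, for the lyase that splits cystathionine towards homocysteine, was at 3.49, 3.61, 2.33 and 4.82, the highest of the list (mean 3.56, SE 0.25, adjusted p = 0.000726). The gene of methionine synthase, MET6, was at 2.52, 2.67, 1.67 and 2.06 (mean 2.23, SE 0.26, adjusted p = 0.00592), and MET13, which supplies its folate methyl group, was at 1.69, 2.01, 1.56 and 1.82 (mean 1.77, adjusted p = 0.00335). Smaller rises were seen for HOM3, for aspartate kinase (1.46), CYS3, for the lyase that yields cysteine (1.33), and MET2, for homoserine acetyltransferase (1.19), whose product is the partner of sulfide in the Met17 reaction. The S-adenosylmethionine synthetase genes SAM2 and SAM1 rose by 1.27 (adjusted p = 0.0332) and 1.01 (adjusted p = 0.0297). MHT1, for a methyltransferase that uses S-methylmethionine, was at 1.70 and missed the threshold without array 4 (1.40, adjusted p = 0.0561).

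Of 9 transporter genes for organic sulfur 4 were higher and none lower. The methionine permease genes MUP3 and MUP1 were at 2.58 (SE 0.49, adjusted p = 0.0256) and 1.41 (SE 0.20, adjusted p = 0.013), and the S-adenosylmethionine permease gene SAM3 at 1.45 (SE 0.16, adjusted p = 0.00532). The S-methylmethionine permease gene MMP1 spread most, at 1.34, 1.48, 0.26 and 2.48 on the 4 arrays. Its mean of 1.39 passed (adjusted p = 0.0154), but not without array 4 (0.84, adjusted p = 0.124). The list held 6 called genes without array 3. The median of the list was 1.08, 1.01, 0.23 and 1.24 on arrays 1 to 4, lowest on array 3.

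Among 5 measured regulators of the pathway only MET28, for a bZIP cofactor of the activator Met4, passed the test. It was at 3.20, 4.18, 3.70 and 3.48, which is 12.5-fold higher (log2 3.64, SE 0.17, adjusted p = 0.000815). MET4 itself was at 0.16, its partners CBF1 and MET31 at 0.25 and 0.20, and MET30, for the ubiquitin ligase subunit that restrains Met4, at 0.65 (adjusted p = 0.0613). Without array 3 MET30 passed as well (0.79, adjusted p = 0.043). Outside the core pathway, MXR1, for methionine sulfoxide reductase, was at 1.89 (SE 0.23, adjusted p = 0.00737), and GTO1, for a glutathione transferase, at 1.87 (SE 0.22, adjusted p = 0.0211). These were 2 of the 8 measured genes of a list of sulfonate, arsenate and glutathione genes.

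Some genes for the carbon skeletons of serine and citrate were also high. CIT2 encodes the peroxisomal citrate synthase and is the classic target of the retrograde pathway, which runs from mitochondria to the nucleus. It was at 3.12, 3.69, 2.80 and 3.83, a 10.2-fold rise (log2 3.36, SE 0.26, adjusted p = 0.000815). Of 25 measured retrograde and citrate cycle genes 6 were higher and none lower, with a median of 0.525. Among the 6 were PYC1, for pyruvate carboxylase (2.01, SE 0.25, adjusted p = 0.00737), DLD3, for a cytosolic D-lactate dehydrogenase (1.99, SE 0.30, adjusted p = 0.0144, missing with arrays scaled to 1 spread), and CIT1, for mitochondrial citrate synthase (1.28, SE 0.20, adjusted p = 0.0148).

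The first step of serine synthesis is made by the paralogous enzymes Ser3 and Ser33. SER3 was at 2.85, 3.00, 4.12 and 3.12 (mean 3.27, SE 0.25, adjusted p = 0.000851) and SER33 at 1.71, 1.96, 2.11 and 2.02 (mean 1.95, SE 0.16, adjusted p = 0.00136). CHA1, for the deaminase that breaks serine and threonine down, went the other way, at -2.24, -1.59, -2.31 and -2.38, which is 4.37-fold lower (log2 -2.13, SE 0.22, adjusted p = 0.00424). The synthetic and the degradative genes did not overlap on any array. They were named as called genes of opposite direction, so this is no separate support for the calls. These 3 were the called members among 13 measured serine and glycine genes, whose median was 0.192.

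Phosphate starvation genes were higher in part. Of 25 measured members 9 were higher and none lower, with a median of 0.46. The secreted acid phosphatase genes PHO5 (2.17, SE 0.33, adjusted p = 0.0148), PHO11 (1.95, SE 0.21, adjusted p = 0.00445) and PHO12 (1.94, SE 0.19, adjusted p = 0.00335) led the list. PHO11 and PHO12 are near-identical copies whose signals these arrays may not separate. PHO84, for the high-affinity phosphate transporter, was at 1.28, 1.34, 1.50 and 1.66 (mean 1.44, SE 0.17, adjusted p = 0.00611). PHO89, for the sodium-coupled phosphate transporter, was below 0 on all 4 arrays, at -1.73, -1.13, -0.58 and -0.48, and did not pass (mean -0.98, SE 0.63, adjusted p = 0.351). It was 1 of 3 listed genes below 0 on every array. The vacuolar phosphatase gene PHO8 was at 1.40 (SE 0.20, adjusted p = 0.0125) and PHM8, for a phosphatase of lysophosphatidic acid and nucleotides, at 1.24 (SE 0.19, adjusted p = 0.0249). Of the 16 polyphosphate genes and regulators in the list, 4 passed.

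General stress genes held more rises than any other list. Of 50 measured members 27 were higher and none lower, and the median was 1.26. The median differed between experiments, 1.51 in A and 1.00 in B, and was lowest on array 4, at 0.58. NQM1, for a transaldolase of the pentose phosphate pathway, was at 5.18, 5.10, 3.49 and 2.57 (mean 4.08, SE 0.51, adjusted p = 0.00744), with both arrays of experiment A above both of experiment B. GRE1, for a hydrophilin, a small protein made under water loss, spread widely, at 4.92, 2.39 and 2.56 on arrays 1, 3 and 4 (mean 3.70, SE 0.57, adjusted p = 0.0183). RTC3 (3.26), GCY1, for a glycerol dehydrogenase (3.02), ALD3, for an aldehyde dehydrogenase (2.81), and CTT1, for cytosolic catalase (2.09), also passed. Of the 10 regulators in the list only the kinase gene YAK1 did, at 1.44 (SE 0.31, adjusted p = 0.0352).

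The same difference between experiments ran through the storage carbohydrates. The trehalose and glycogen list had 8 of 22 genes higher and none lower, with a median of 1.28 on the arrays of A and 0.31 on those of B. TPS2, for trehalose phosphatase, was at 2.31, 2.68, 2.35 and 1.10 (mean 2.11, SE 0.34, adjusted p = 0.0165). TPS1, for trehalose phosphate synthase, was at 2.38, 2.70, 1.74 and 0.59 (mean 1.85, SE 0.39, adjusted p = 0.0336), highest on both arrays of experiment A. The trehalase gene NTH1 rose with the synthetic genes (1.21, adjusted p = 0.0272). UGP1, which makes the sugar donor of both stores, was at 1.69, and the glycogen genes GLC3 and GSY2, for the branching enzyme and glycogen synthase, at 1.66 and 1.58. These counts leaned on array 3: without it 15 general stress genes and 1 of the 22 storage genes passed. TPS1, NTH1, UGP1, GLC3 and GSY2 then had adjusted p-values from 0.0521 to 0.0891, at means from 1.09 to 1.57. STF2, a hydrophilin gene at 1.87, missed as well (1.50, adjusted p = 0.0511).

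Glycerol and pentose phosphate genes rose in smaller number. In the glycerol list 5 of 12 were higher, GCY1 among them, with GPD1, for the first enzyme of glycerol synthesis, at 1.65, 2.10, 1.77 and 1.07 (mean 1.65, SE 0.25, adjusted p = 0.0154). The phosphatase gene GPP2, which completes the synthesis, was at 1.03 (SE 0.21, adjusted p = 0.0328) and DAK1, for dihydroxyacetone kinase, at 1.25 (SE 0.20, adjusted p = 0.0166). In the pentose phosphate list 5 of 14 were higher, led by NQM1 (4.08), which the general stress list also holds. ZWF1, for the first and NADPH-yielding enzyme, was at 1.29 (SE 0.21, adjusted p = 0.0165), GND2 at 1.03 (adjusted p = 0.0372) and SOL4 at 1.89 (adjusted p = 0.049). Without array 3 each list held 3 called genes, and GPP2, GND2 and SOL4 missed the threshold (adjusted p = 0.0651, 0.0506 and 0.127). SOL4 missed it without array 1 too (adjusted p = 0.053).

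In the redox list 10 of 33 genes were higher, 1 lower and 22 did not pass, with a median of 0.44. The highest was CTT1 (2.09), given above with the general stress genes. TSA2, for a stress-induced peroxiredoxin, was at 1.90, 2.57, 1.78 and 1.58 (mean 1.96, SE 0.24, adjusted p = 0.00737), and the mitochondrial peroxiredoxin and superoxide dismutase genes PRX1 and SOD2 were at 1.75 (SE 0.26) and 1.40 (SE 0.24). CTA1, for peroxisomal catalase, was the lower member, at -1.01, -2.06 and -0.28 on arrays 1, 3 and 4. Its mean of -1.09 passed (adjusted p = 0.0235), but not without array 3 (-0.65, adjusted p = 0.136), with arrays 1 and 3 and arrays 2 and 4 paired (-0.91, adjusted p = 0.0765) or with experiments as random effects (-1.11, adjusted p = 0.0511). The list held 5 higher genes without array 2 and 5 without array 3.

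Of 26 heat shock chaperone genes 4 were higher, none lower and 22 did not pass, with a median of 0.27. The 4 were HSP78 (1.76), SSA4 (1.72), SSE2 (1.65) and HSP104 (1.48), whose products refold or hold damaged proteins. SSA4 was at 1.73, 2.43, 1.40 and 1.33 (SE 0.31, adjusted p = 0.0225) and was the 1 gene of the list that passed without array 3; HSP78, SSE2 and HSP104 then had adjusted p-values of 0.0561, 0.0641 and 0.0941. The small heat shock protein gene HSP42, in the general stress list, was at 1.15 (adjusted p = 0.0199). Polyubiquitin, UBI4, was at 1.58 (SE 0.24, adjusted p = 0.0144), the 1 called gene among 33 of the proteasome list. Of 36 respiration genes 7 were higher, none lower and 29 did not pass, with a median of 0.50; they were led by the internal NADH dehydrogenase gene NDI1 (1.66, SE 0.31, adjusted p = 0.0252) and the succinate dehydrogenase subunit gene SDH4 (1.27, SE 0.24, adjusted p = 0.0252). Without array 3 the respiration count was 2, and without array 2 it was 4. None of 60 mitochondrial ribosomal protein genes and none of 19 vacuolar proton ATPase genes passed in limma at an adjusted p of 0.05, with 0 and 1 of them at an unadjusted p under 0.05.

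**Figure D3:**
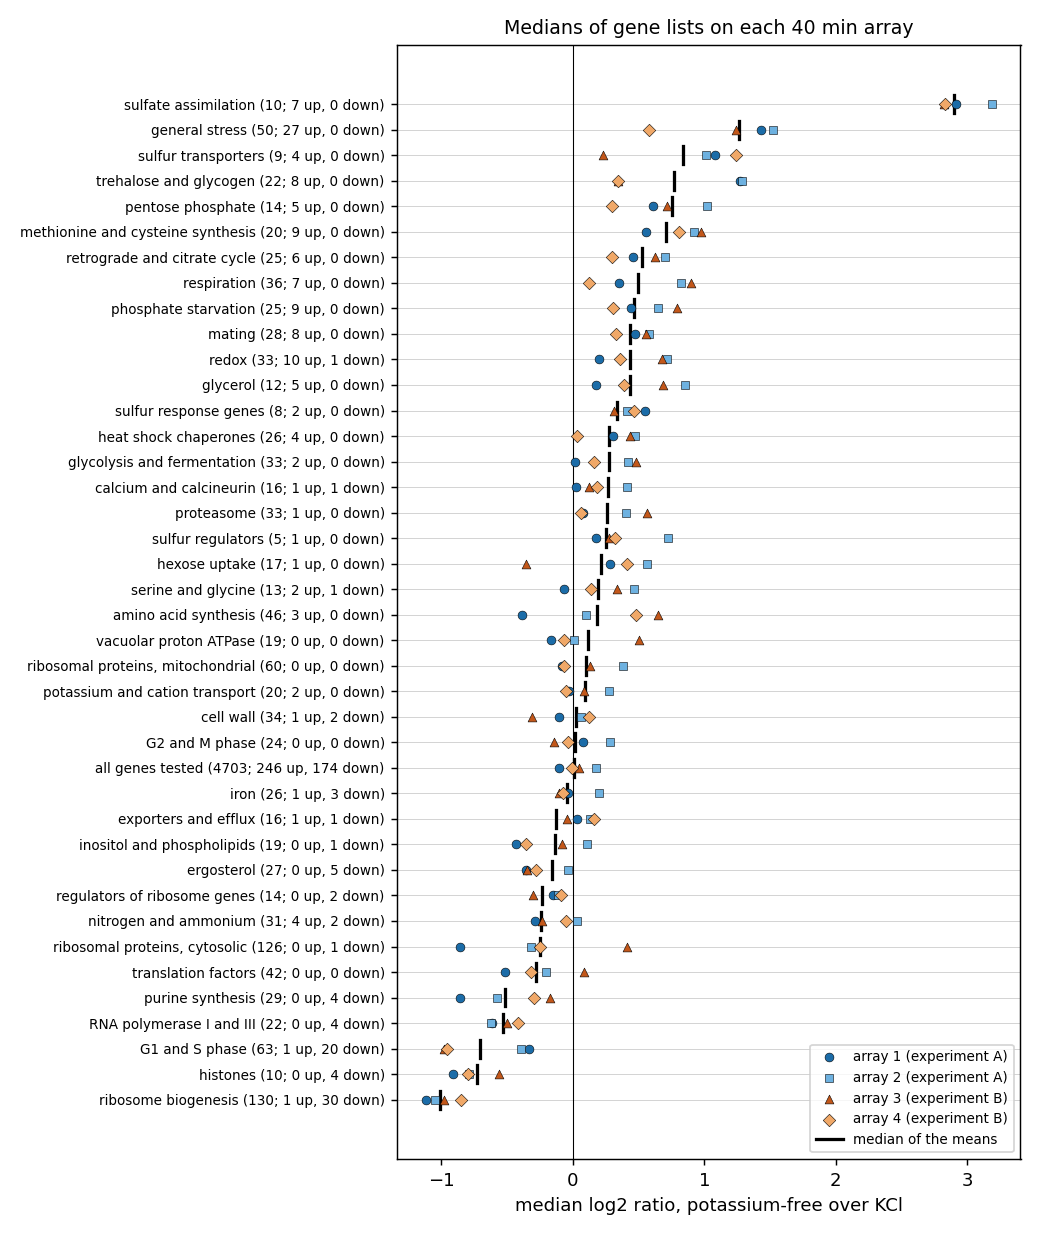
Median log2 ratio of potassium-free over KCl on each array for gene lists with at least 5 tested members, with the number of tested members and of genes called higher (up) or lower (down) in parentheses, and a bar for the median of the means. Sulfate assimilation lies near 3 on all 4 arrays, general stress spreads from 0.58 on array 4 to 1.52 on array 2, ribosome biogenesis lies near -1, and all genes tested lie near 0.

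Genes of G1 and S phase formed the main group of falls beside ribosome assembly. Of 63 measured members 20 were lower and 1 higher, and the median was -0.71, at -0.45 (A) and -0.96 (B) in the experiments. None of 24 genes of G2 and mitosis passed in limma (1 at an unadjusted p under 0.05), and their median was 0.02. In bulk RNA fewer cells in a cell cycle stage and less RNA per cell cannot be told apart. MCD1, for a cohesin subunit, was the lowest called gene of the time point, at -2.22, -1.97, -3.29 and -2.65, which is 5.78-fold lower (log2 -2.53, SE 0.35, adjusted p = 0.0148). PCL1, for a G1 cyclin of the kinase Pho85, was at -2.25, -1.56, -2.33 and -2.54 (mean -2.17, SE 0.30, adjusted p = 0.0114). Experiment B was the lower of the pair for both genes.

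Of 28 genes for G1 cyclins and the start of the cycle 11 were lower, 1 higher and 16 did not pass, with a median of -0.33. Among the lower ones TOS6 was at -2.15 (SE 0.43, adjusted p = 0.0297), the bud neck kinase gene KCC4 at -2.14 (SE 0.27, adjusted p = 0.0165, missing it with arrays scaled to 1 spread) and SVS1, for a cell wall protein, at -1.96 (SE 0.32, adjusted p = 0.0178). TOS4 was at -2.03 (adjusted p = 0.0428) and missed the threshold without array 3 (-1.80, adjusted p = 0.0605). Of 35 genes for replication and cohesion 9 were lower, with a median of -0.76, among them the mismatch repair gene MSH6 (-1.74, SE 0.35, adjusted p = 0.037), POL2, for the catalytic subunit of DNA polymerase epsilon (-1.62, SE 0.18, adjusted p = 0.0129), and CDC21, for thymidylate synthase (-1.52, SE 0.20, adjusted p = 0.0092). POL12, for a subunit of DNA polymerase alpha, was at -1.52 (adjusted p = 0.0434) and missed without array 1 or array 3 (adjusted p = 0.0656 and 0.06). PDS5, for a factor that maintains cohesion and no member of the list, was at -1.95 (SE 0.34, adjusted p = 0.0327). The list count fell to 12 lower genes without array 1.

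CLN3, for the cyclin that acts upstream of SBF and MBF, was the 1 higher gene of the list and was picked out after its value was seen. It was at 0.72, 1.32, 0.26 and 1.01 (mean 0.83, SE 0.19, adjusted p = 0.0413), above 0 on all 4 arrays while its listed downstream genes PCL1 and MCD1 were below 0 on all 4. It missed the threshold without array 2 (0.68, adjusted p = 0.0628) or array 4 (0.64, adjusted p = 0.123).

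Of the 10 histone genes 4 were lower and none higher, with a median of -0.73. HTB2 (H2B) was at -1.50, -1.14, -1.80 and -1.80 (mean -1.56, SE 0.34, adjusted p = 0.036) and HTA2 (H2A), its neighbour with a shared promoter, at -1.37, -1.13, -1.66 and -1.71 (mean -1.47, SE 0.31, adjusted p = 0.0333). The H4 genes HHF1 and HHF2 were at -1.17 (SE 0.22, adjusted p = 0.0256) and -1.13 (SE 0.19, adjusted p = 0.0179), with HHF2 between -1.03 and -1.21 on every array. The other copies of H2A and H2B fell less and were not called, HTA1 at -0.62 and HTB1 at -0.83. Also not called were the H3 genes HHT1 (-0.64) and HHT2 (-0.49), HHO1 (-0.41) and HTZ1 (0.05). Copies of a histone are near-identical in coding sequence, so the arrays may not fully separate them, and the counts do not stand for independent genes.

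**Figure D4:**
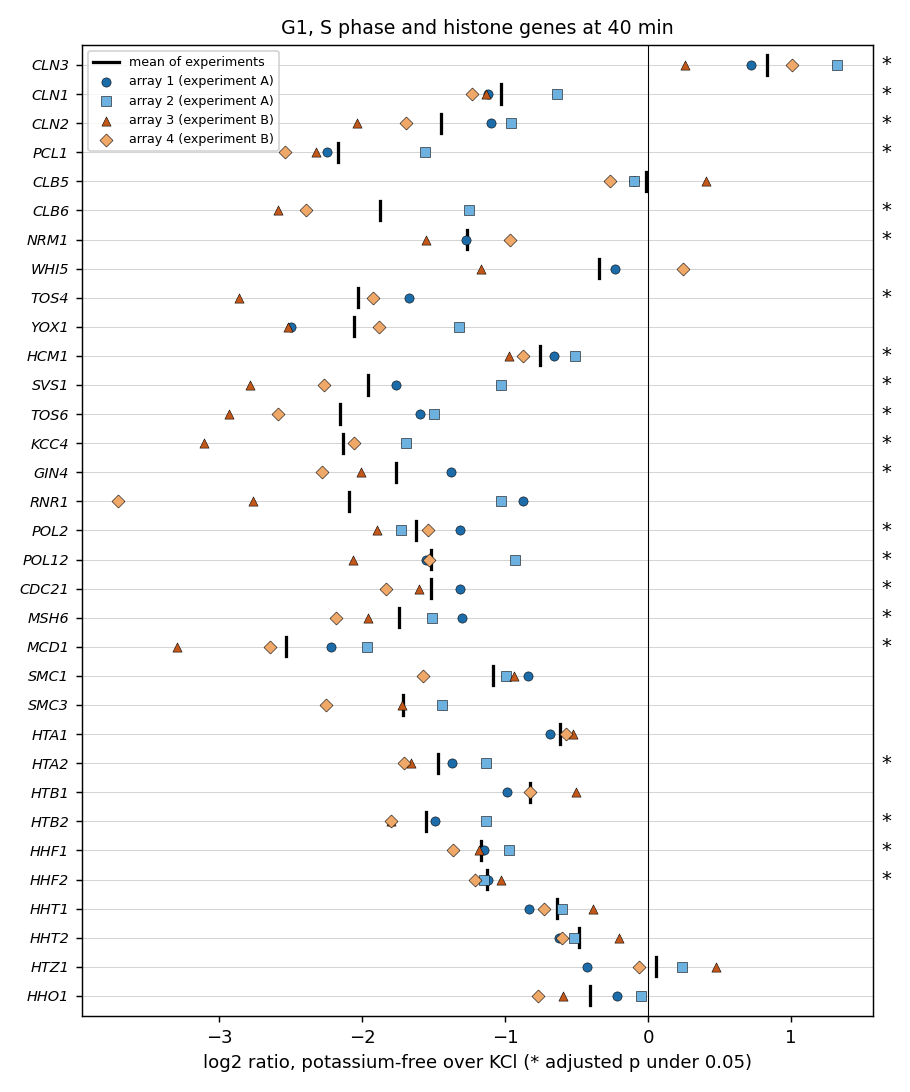
Log2 ratio of potassium-free over KCl for 33 genes of G1, S phase and chromatin, 1 marker per array (circles and squares for experiment A, triangles and diamonds for experiment B), a bar for the mean of the experiments and an asterisk for an adjusted p under 0.05. Most called genes lie between -1 and -3, triangles and diamonds often further left than circles and squares, and CLN3 is the one called gene to the right of 0.

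Ribosome assembly genes shifted down as a broad group. Of 130 measured members 112 had negative values on each array with a value, against 1068 of all 4703 genes tested, 30 passed the test as lower and 1 as higher, and the median was -1.01. The medians were -1.12, -1.05, -0.98 and -0.85 on arrays 1 to 4, much alike. Of 61 genes for the small subunit 17 were lower, and of 69 for the large subunit 13. NOG1 and NOG2, for GTPases of large subunit assembly, were at -1.74 (SE 0.18, adjusted p = 0.0114) and -1.54 (SE 0.21, adjusted p = 0.0142), and the helicase gene DBP2 was the lowest, at -2.26 (SE 0.47, adjusted p = 0.0327). Small subunit genes included UTP23, for a processome component (-1.98, SE 0.33, adjusted p = 0.0181), NSR1, for a nucleolin-like protein (-1.93), LTV1, for a factor of small subunit export (-1.87), and ENP2, for a nucleolar protein (-1.83).

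NOP1, for the methyltransferase fibrillarin, was the 1 assembly gene called higher, at 1.72, 2.32, 1.81 and 0.94 (mean 1.70, SE 0.31, adjusted p = 0.0225). It was 1 of 4 assembly genes above 0 on every array with a value. Without array 3 NOP1 missed the threshold (1.48, adjusted p = 0.0516), as did NSR1, LTV1 and ENP2 (adjusted p from 0.0604 to 0.062), and 17 assembly genes passed as lower. When every array was given an equal spread 72 passed, and after quantile normalization 76.

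Genes for the polymerases that make ribosomal and transfer RNA were also called lower in part. Of 22 genes for RNA polymerase I and III 4 were lower and none higher, with 18 below 0 on every array: the polymerase I subunit genes RPA43 (-1.52, adjusted p = 0.0459) and RPA135 (-1.27, adjusted p = 0.049), the polymerase III subunit gene RPC25 (-1.26, adjusted p = 0.0319) and the polymerase I initiation factor gene RRN6 (-0.96, adjusted p = 0.0402). None of the 4 passed without array 3: RPA43, RPA135 and RPC25 then had adjusted p-values from 0.0521 to 0.0586, and RRN6 went to -0.55 (adjusted p = 0.114). RRN6 missed without array 2 as well (adjusted p = 0.0821), 2 of the 4 passed without array 1, and RPA135 also missed without array 4 (adjusted p = 0.0501). TOD6, for a repressor of ribosome assembly genes, was itself at -2.47 (SE 0.52, adjusted p = 0.0477), measured on arrays 2, 3 and 4 at -2.51, -3.27 and -1.59. It missed the threshold without array 3 (-2.05, adjusted p = 0.0958) or array 1, where it had no value (adjusted p = 0.0523). RAP1, for an activator of ribosomal protein genes, was at -1.22 (SE 0.24, adjusted p = 0.0292).

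Few genes for the ribosomal proteins themselves passed the test. Of 126 measured cytosolic ribosomal protein genes 1 was lower and none higher, and the median of -0.25 hid a split between arrays, at -0.86, -0.32, 0.41 and -0.25 on arrays 1 to 4. Experiment A had a median of -0.57 and experiment B of 0.08, and no gene was above 0 on every array. The 1 lower gene, RPS27A, was at -1.21, -0.80, -0.21 and -0.94 (mean -0.79, SE 0.19, adjusted p = 0.047), and missed the threshold without array 1 or array 4 (adjusted p = 0.0579 and 0.141). Without array 3 the list median was -0.43. Many of these genes are duplicated pairs of near-identical sequence. None of 42 translation factor genes passed in limma (9 at an unadjusted p under 0.05), with a median of -0.28, and 8 passed after quantile normalization.

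**Figure D5:**
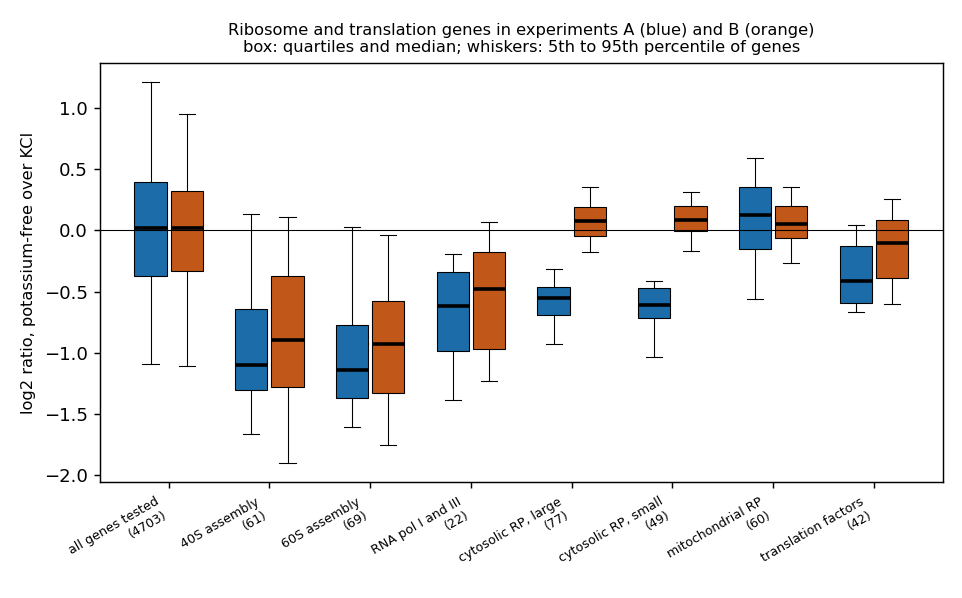
Boxes give the quartiles and median over genes of the log2 ratio of potassium-free over KCl in experiment A (blue) and experiment B (orange), whiskers reach from the 5th to the 95th percentile, and gene numbers stand in parentheses. Assembly genes lie near -1 in both experiments, while the cytosolic ribosomal protein genes lie below 0 in experiment A and around 0 in experiment B.

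Of 29 purine synthesis and nucleotide uptake genes 4 were lower and none higher, with a median of -0.52: HPT1, for hypoxanthine-guanine salvage (-2.00, SE 0.26, adjusted p = 0.00978), IMD4 and IMD3, for the enzyme that commits purines to GTP (-1.69 and -1.35, adjusted p = 0.018 and 0.0415), and FUI1, for the uridine permease (-1.44, adjusted p = 0.0312). IMD3 and IMD4 are close paralogues whose signals may mix, and FUI1 missed the threshold without array 3 (-1.19, adjusted p = 0.0808). Of 27 ergosterol genes 5 were lower and none higher, with a median of -0.16. Among the 5 were ERG3 (-1.53, SE 0.22, adjusted p = 0.013), ERG25 (-1.31, SE 0.18, adjusted p = 0.0103) and ERG11 (-0.84, SE 0.17, adjusted p = 0.0319). The ergosterol list held 3 lower genes without array 1 and 3 without array 3. Of 26 iron and metal genes 3 were lower, 1 higher and 22 did not pass, with a median of -0.05. The lower ones were the high-affinity iron uptake genes FTR1, for the permease (-1.73, SE 0.18, adjusted p = 0.00445), and FET3, for the oxidase (-0.88, SE 0.16, adjusted p = 0.0249), and the vacuolar zinc transporter gene ZRC1 (-0.66, adjusted p = 0.0457), which missed without array 1 or array 3 (adjusted p = 0.0582 and 0.0695). The higher one was ISU1, for the scaffold of iron-sulfur cluster assembly (1.10, SE 0.20, adjusted p = 0.0235). HNM1, for the choline transporter, was the 1 called gene among 19 inositol and phospholipid genes, at -1.32 (SE 0.19, adjusted p = 0.013).

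Of 28 measured mating genes 8 were called higher, none was called lower and 20 did not pass, with a median of 0.44. The members reached down to -0.88, and 2 were below 0 on every array. The a-agglutinin genes AGA1 and AGA2 were at 1.95 (SE 0.25, adjusted p = 0.00887) and 1.35 (SE 0.31, adjusted p = 0.0427), ASG7, an a-specific gene, at 1.56, 2.70, 1.40 and 2.57 (mean 2.06, SE 0.26, adjusted p = 0.00767), FUS1, for a cell fusion protein, at 1.57, 2.27, 0.92 and 2.17 (mean 1.73, SE 0.21, adjusted p = 0.00737), and KAR4 at 1.23 (SE 0.19, adjusted p = 0.0148). For ASG7 and FUS1 arrays 2 and 4 were the higher ones, of opposite dye and, under the assumed pairs, 1 from each experiment. With arrays 1 and 3 and arrays 2 and 4 paired, they would form 1 experiment. AGA2 missed the threshold without array 2 (adjusted p = 0.0628).

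Of 31 nitrogen and ammonium genes 4 were higher, 2 lower and 25 did not pass, with a median of -0.24. The genes for 4-aminobutyrate breakdown UGA1 (1.39, SE 0.17, adjusted p = 0.00737) and UGA2 (1.20, SE 0.19, adjusted p = 0.0265) and for arginine breakdown CAR1 (1.17, SE 0.20, adjusted p = 0.0204) and CAR2 (1.10, adjusted p = 0.0374) were the 4 higher ones, among 22 nitrogen catabolite genes with a median of -0.17. CAR2 missed the threshold without array 4 (adjusted p = 0.0565). The 2 lower ones were GDH1, for glutamate dehydrogenase (-0.96, adjusted p = 0.0428), and the ammonium permease gene MEP3 (-0.93, adjusted p = 0.046), and both missed without array 4 (adjusted p = 0.131 and 0.0639). They were 2 of 9 genes for ammonium transport and assimilation, with a median of -0.46. AQR1, for an exporter of amino acids, was at -2.07, -2.38, -3.57 and -1.91 (mean -2.48, SE 0.43, adjusted p = 0.0199). Of 16 exporter genes it was the 1 called lower, and the polyamine exporter gene TPO2 was the 1 called higher (0.63, adjusted p = 0.049), which missed without array 1 or array 4 (0.58 and 0.43, adjusted p = 0.0638 and 0.151). Amino acid synthesis, with 3 of 46 higher, differed between experiments, with medians of -0.13 in A and 0.56 in B. HIS4, for histidine synthesis, was at 0.70, 0.70, 2.76 and 2.41 (mean 1.64, SE 0.38, adjusted p = 0.0428) and ARG4, for arginine synthesis, at 0.65, 1.22, 2.27 and 1.72 (mean 1.46, SE 0.24, adjusted p = 0.0179). For both genes arrays 3 and 4 lay above arrays 1 and 2. Here and for NQM1 and TPS1, the share of all genes with such a split between the assumed experiments was not counted. HIS3, deleted in part in this strain and the 1 measured gene of the 4 altered ones, was at -0.50, 0.61, 1.61 and 1.37 and did not pass (mean 0.77, adjusted p = 0.181).

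No measured gene for a potassium transporter passed the test. Of 13 listed potassium and sodium transporter genes 6 were measured, PHO89 among them, and in limma none passed (1 at an unadjusted p under 0.05). Their means ran from -0.98 to -0.00375, with a median of -0.396, and 3 were below 0 on every array. Of 20 measured genes for potassium, sodium and proton transport and its regulators, 2 were higher and none lower. Without array 3 the count was 4, with PPZ2, for a phosphatase like Ppz1 (0.93, adjusted p = 0.0426; 0.81 and 0.0652 with all arrays), and PTK1, the paralogue of PTK2 (1.22, adjusted p = 0.0437; 1.00 and 0.0816 with all arrays). Without array 4 the count was 1. TRK1, the main potassium importer gene, was at 0.08, -0.26 and -0.25 on arrays 1, 3 and 4 (mean -0.09, SE 0.19, adjusted p = 0.787). TRK2 was at -0.35, 0.02, -1.33 and -0.31 (mean -0.49, SE 0.24, adjusted p = 0.239), with array 3 the lowest. PMA1, the proton pump gene, was at 0.48, 0.28, -0.08 and 0.40 (mean 0.27, SE 0.27, adjusted p = 0.539). A p that misses the threshold does not show equal levels.

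The called genes of that list both encode regulators. PTK2, for a kinase that activates Pma1, was at 1.50, 1.73, 1.43 and 1.01 (mean 1.42, SE 0.23, adjusted p = 0.0179). VHS3, for an inhibitor of the phosphatase Ppz1, which itself restrains potassium uptake, was at 1.40, 1.87, 0.48 and 1.07 (mean 1.21, SE 0.23, adjusted p = 0.0256), and missed the threshold without array 4 (adjusted p = 0.0538). HAL5, for a kinase that stabilises the Trk proteins, was at 0.38 (adjusted p = 0.245). Of 16 calcium and calcineurin genes 1 was higher and 1 lower. RCN2, for a calcineurin regulator, was at 1.32 (SE 0.23, adjusted p = 0.021) and MID1, for a calcium channel subunit, at -1.08 (SE 0.22, adjusted p = 0.0326), missing without array 3 (-0.94, adjusted p = 0.0722). In the cell wall list of 34, HSP150 was the 1 higher gene (1.23, SE 0.18, adjusted p = 0.0168) and GAS1, for a glucan-remodelling enzyme (-1.19, SE 0.25, adjusted p = 0.0328), and SCW10, for a wall protein (-1.07, SE 0.19, adjusted p = 0.021), were the 2 lower ones. SCW10 missed without array 1 (-0.86, adjusted p = 0.0563), and without array 4 the wall list held 4 lower genes. Actin, ACT1, was at 0.23 (adjusted p = 0.443).

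Some of the highest genes belong to none of the lists. YRO2, for a plasma membrane protein, was at 3.29, 3.32, 2.85 and 3.39, a 9.28-fold rise (log2 3.21, SE 0.19, adjusted p = 0.000509). BOP2 was at 3.33 (SE 0.70, adjusted p = 0.0405, and 0.0523 without array 2), GPG1 at 2.97 (SE 0.41, adjusted p = 0.0148) and FMP45 at 2.84 (SE 0.45, adjusted p = 0.0199). NCE103, for carbonic anhydrase, which hydrates carbon dioxide to bicarbonate, was picked out after its value was seen, at 2.56, 2.78, 2.96 and 2.31 (mean 2.65, SE 0.20, adjusted p = 0.000815). The paralogous growth regulators RAS1 and RAS2, also picked out afterwards, went in opposite directions, RAS1 at -1.56 (SE 0.21, adjusted p = 0.0101) and RAS2 at 0.86 (SE 0.20, adjusted p = 0.043). RAS2 missed the threshold without array 3 (0.67, adjusted p = 0.11).

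Overlapping reading frames limit a few of these names. YOR121C, which overlaps GCY1, was at 3.05, 3.96, 3.67 and 2.17 (mean 3.21) beside 3.92, 2.95, 3.23 and 1.95 for GCY1. YDL023C, which overlaps GPD1, was at 1.91, and YGR160W, which overlaps NSR1, at -1.75, both looked up after their neighbours' values were seen. Whether the spotted DNA tells the strands apart is not stated, so such pairs may share 1 signal and were not read as separate genes.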

How the data were processed

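Per the labels, spots smaller than 120 µm across or dimmer than 100 units were not used, and cDNA came from 8 µg of total RNA with an oligo(dT) primer. The authors' deposited values are taken to be log2 ratios, 1 per gene and array; how they were corrected and normalized, and the log base, were not given in the sources used here. Of the 4703 IDs tested, 4439 matched RefSeq locus tags (assembly R64), 4 more matched in capitals, and 260 kept their ID. The members, gene lists and tests were chosen with earlier results of these data known. Dye-swap arrays were averaged, and limma 3.58.1 in R 4.3.3 fitted 1 mean for each of the 5 time points to the 9 experiments (prior degrees of freedom 3.49, residual 4). Tests were two-sided against 0. The p-values measure only the spread between experiments, pooled over the time points, part of which may be technical.

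Genes named are the 20 highest and 20 lowest called genes with 1 sign on every array, up to 5 called members of each list role with the largest means (filled to 2), members of the sulfate, sulfur regulator, histone and potassium lists, 10 fixed genes, and genes overlapping the first 40. Some that this takes are given by counts only. Consensus correlation of arrays within experiments was 0.252, and -0.236 with arrays 1 and 3 and arrays 2 and 4 paired. The alternatives were other pairings, blocks, scalings, filters, priors and thresholds, and leaving out each array or experiment. The fit was tested on data simulated with the fitted spread. It called 5 of 67 genes changed by a log2 of 0.5, 45 of 67 changed by 1 and 66 of 66 changed by 2. Of its 125 calls 9 were false, and most changes of 0.5 were missed. Promoter sequences were not analysed here.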

Additional observations from a re-analysis of the deposited data

Results flagged for a closer look

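For 140 genes with values on all 4 arrays, the highest or lowest array was set against the others with Dixon's test, which flags about 5% of groups by chance. It flagged 3, which is fewer than that share, so these flags may all be due to chance. DBP2 was at -2.72 on array 3 and between -2.16 and -2.05 on the others. FUI1 was at -0.66 on array 4 and between -1.79 and -1.63 on the others. UGA1 was at 2.12 on array 2 and between 1.13 and 1.18 on the others.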

How the results depend on the processing

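The number of genes past the threshold at 40 min (420; 246 higher, 174 lower) moved by over 1.5 times where the spread was estimated otherwise. It was 1244 (633 higher, 611 lower) when arrays 1 and 3 and arrays 2 and 4 were paired, 1340 (681, 659) when the 4 arrays counted as separate replicates and 936 (467, 469) when experiments entered as random effects. With a term for the dye it was 1280 (651, 629). That fit also counted the arrays as separate replicates, so it does not show the effect of the dye term alone. It was 996 (477, 519) with 40 min fitted alone. It was 743 (382, 361) with arrays scaled to 1 median absolute value and 829 (410, 419) after quantile normalization. At an adjusted p of 0.01 it was 46 (41, 5) and at 0.1 it was 811 (426, 385). With the replicate number as a block it was 385 (229, 156), and the numbers were not read as pairs. Leaving out each array in turn gave 282 to 448 genes (176 to 264 higher, 106 to 198 lower), fewest without array 3. Leaving out an experiment gave 24 genes (21 higher, 3 lower) without A and 41 (41 higher, 0 lower) without B, with the lone experiment assumed to vary like the others. The other alternatives stayed within 1.5 times.

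Of 143 called genes named in the text, 41 missed the threshold without at least 1 array, 130 without 1 or the other experiment, and 110 at an adjusted p of 0.01; none changed direction. It was missed by 6 with scaled arrays (DLD3, SOL4, HSP104, KCC4, TOD6 and TPO2), 6 with the replicate block (SOL4, RPA43, RPA135, RPS27A, TPO2 and ZRC1), 5 with median centring (TOS4, RPA43, RPA135, RPS27A and TPO2), 4 where each experiment needed 1 array (SOL4, RPA135, TOD6 and TPO2), 3 with random effects (MMP1, CTA1 and TPO2), 2 after quantile normalization (SOL4 and TOD6), 1 with the other pairs (CTA1) and 1 with 40 min alone (TPO2). Of these, DLD3 and KCC4 passed without each array that could be left out (KCC4 was not tested without array 2). With arrays or an experiment left out, some values near 0 changed sign: the median of inositol and phospholipid genes ran from -0.282 to 0.023, of exporters from -0.22 to 0.0263, of potassium and cation transport from -0.0708 to 0.22 and of mitochondrial ribosomal proteins from -0.0488 to 0.20, and TRK1 from -0.26 to 0.077. The cause of these changes was not tested. Promoter motifs were not run. The number of arrays limits the precision.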
